A study of Mus musculus with 10 samples.

Results

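The endoplasmic reticulum (ER) stress chaperones and their regulators described here are 10 genes, taken by symbol from the 53379 genes of the count files. They are Hspa5, Hsp90b1, Sdf2l1, Dnajb9, Pdia4, Calr, Manf, Creld2, Xbp1 and Ddit3. They were selected on RNA levels and fold changes of these same libraries, known from earlier results, so their levels and fold changes are given as a description and carry no test. RNA-seq was performed on sorted cells from the hippocampus of male mice 5 weeks old, in which a pair of viruses, AAV9-c-Fos-tTA with AAV9-TRE-ChR2-EYFP, labels cells that were active while doxycycline was withdrawn. The c-Fos promoter reports activity and not a cell type. The aversive group (2 libraries) received 4 foot shocks of 2 s at 1.5 mA, the appetitive group (2 libraries) met a female in a clean home cage (for 1 h by the labels, while the study's methods describe a longer meeting for behavioral tagging), and the neutral group (3 libraries) explored the conditioning cage with neither stimulus. The mock group (3 libraries) came from mice in the home cage, and the study's methods describe mock as untagged. Each condition was a pool of 8 mice by the labels, although the study's methods give fewer mice for mock, and whether replicate libraries are separate pools is not stated, so the spread between them may be technical. Neutral libraries alone were made with the second of the library kits and read on another sequencer as longer paired reads, so in every comparison with neutral the experience and the kit cannot be told apart.

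The ER folds secreted and membrane proteins. When unfolded proteins build up there, the chaperone Hspa5 (BiP) leaves the sensors IRE1, PERK and ATF6, which then raise the cell's folding capacity, an adjustment called the unfolded protein response. IRE1 splices the Xbp1 message into one that encodes a transcription factor, ATF6 is cut to release another, and PERK slows translation while favoring ATF4, which acts upstream of Ddit3 (CHOP). In the hippocampus the translation control that PERK shares with other kinases is known to take part in memory formation.

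Chaperone genes of this response carry the ER stress element in their promoters, the letters CCAAT and, 9 bases further on, CCACG. It is shown here because it is known for genes of this response and played no part in choosing the 10 genes, of which some carried it and others did not. Since it is known from such genes, matches among the 10 are a description and not a test. RefSeq promoters of 300 bases (250 before and 50 after the start site, build GRCm38.p6) were held for 9 of the 10 genes, all but Manf. The element was found on either strand, with all 10 letters matching, in 4 of the 9 (Hspa5, Hsp90b1, Calr and Creld2) and in 39 of all 32851 promoters (0.119%). With at most 1 mismatch it was found in 6 of the 9, adding Pdia4 and Ddit3, and in 494 of all promoters (1.50%). The sequences below are given on the strand that reads CCAAT first, with the matched letters in capitals.
Hspa5, chr2:34772020-34772048: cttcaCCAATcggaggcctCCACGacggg
Hsp90b1, chr10:86705633-86705661: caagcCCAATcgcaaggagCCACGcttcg
Hsp90b1, chr10:86705528-86705556: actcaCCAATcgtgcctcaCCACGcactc
Calr, chr8:84847070-84847098: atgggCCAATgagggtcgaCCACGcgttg
Creld2, chr15:88819515-88819543: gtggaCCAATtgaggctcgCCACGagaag
Pdia4, chr6:47813597-47813625: gaccaCCAATcacgggctgCCACTcggtt
Ddit3, chr10:127290697-127290725: gcctaCCAATcagaaagcgGCACGctggc

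Hsp90b1 held 2 exact elements, 1 on each strand, and another with a mismatch (C18G) between them. Other substitutions were G19T in Pdia4 and C15G in Ddit3, with positions counted from 1 at the first C of CCAAT and the element's base given first. Hspa5 carried its element nearest to the start site, from 65 to 47 bases upstream, and by the GENCODE M21 annotation this stretch lies in the first exon (untranslated) of a longer Hspa5 transcript. The Ddit3 stretch overlaps an exon of Gm4189 on the opposite strand. Promoters of Sdf2l1, Dnajb9 and Xbp1 held no match in these 300 bases. The 120 bases before the Sdf2l1 start site (chr16:17132384-17132503, minus strand) are printed for contrast, since Sdf2l1 differed most between groups.
Sdf2l1: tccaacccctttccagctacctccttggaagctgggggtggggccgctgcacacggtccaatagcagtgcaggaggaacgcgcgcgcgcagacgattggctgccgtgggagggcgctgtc

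None of the 9 promoters held the second ER stress element (ATTGG, 1 base, CCACG; 0.0365% of all promoters), TGACGTGG, a site of XBP1 and ATF6 (0.676%), or TGATGCAAT, a site of ATF4 with C/EBP proteins (0.192%). A match is a run of letters and does not show that a factor binds there.

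**Figure D1:**
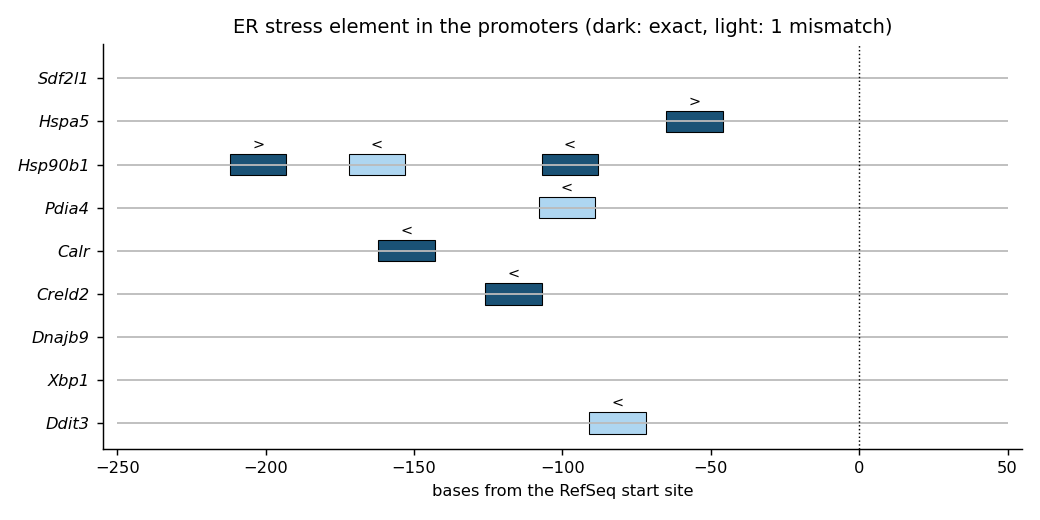
Each gray line is a promoter, with the distance in bases from the RefSeq start site on the x axis (dotted line at the start site). Boxes mark the ER stress element, dark where exact and light where 1 letter differed, and the arrowhead gives the strand (> that of the gene). Boxes lie in 6 of the 9 promoters, all upstream of the start site.

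Total counts were between 16968588 and 67650693 per library, and genes with at least 1 count numbered 14144 and 14658 in the appetitive libraries against 16849 to 30899 in the others. Levels are in CPM, a gene's count per 1000000 counts of the library total after TMM scaling. This scaling adjusts totals on the assumption that most genes match between libraries. The factor on the total was 0.48 in appetitive 1 and 0.736 to 1.453 in the other libraries. CPM in appetitive 1 is therefore higher than its share of raw counts. After scaling, the median of all tested genes was still lower in appetitive than in mock libraries, by -1.45 on the log2 scale. The least that the depth can show was set at 3 counts, which corresponded to between 0.0346 and 0.235 CPM. This floor covers counting error only. Summed CPM of 8 neuron markers was between 66.1 and 729, against 7523 to 804800 for 8 oligodendrocyte markers. After scaling, the highest neuron sum was in appetitive 1, with Snap25 at 577 CPM. As a share of raw counts, neuron markers made up 0.0183% to 0.0350% in appetitive and more, 0.0444% to 0.0535%, in aversive libraries. Neurod6, a marker of excitatory neurons, had no count in either appetitive library and was at most 0.221 CPM in aversive and neutral libraries. Over all libraries, summed CPM was 1481 to 11780 for endothelial markers (8 genes), 65.0 to 3489 for fibroblast or mural cells (6), 55.5 to 704.5 for oligodendrocyte precursors (5) and 0.0524 to 78.9 for interneurons (6). In bulk samples, fewer cells of a type and less RNA per cell cannot be told apart.

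Sdf2l1 encodes an ER protein that works with the Hspa5 co-chaperone Dnajb11. It was at the floor in both appetitive libraries and well above it in every other library. Its counts were 2 and 2 in appetitive libraries, 1648 and 2077 in aversive, 514, 718 and 2380 in mock, and 14990, 8233 and 19022 in neutral libraries. In CPM this was 0.156 and 0.105 in appetitive 1 and 2, 82.5 and 41.6 in aversive 1 and 3, 20.5, 37.4 and 32.9 in mock 1 to 3, and 236.5, 95.1 and 244.4 in neutral 1 to 3. No pair of groups overlapped, and the order of the levels was neutral, aversive, mock and appetitive. Against the appetitive floor, Sdf2l1 was at least 264.5-fold higher in aversive, at least 129-fold higher in mock and at least 818-fold higher in neutral libraries. Aversive libraries were 1.04 ± 0.73 (SE) above mock on the log2 scale and neutral libraries 2.67 ± 0.71 above mock. The gene lies on chromosome 16 (17130138 to 17132383, minus strand, GRCm38), and its exons overlap no other annotated gene.

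Other genes were also near 0 in the appetitive libraries. Of 4758 tested genes whose mean mock level was at least that of Sdf2l1, 167 (3.51%) had at most 3 counts in both appetitive libraries, a cutoff chosen after its values were seen. Of 3295 genes at 20 CPM or more in every mock and neutral library, 645 were under 1 CPM in appetitive 1 and 324 in appetitive 2, against 171 and 77 in aversive 1 and 3. Sets under 1 CPM in both libraries of a group numbered 130 genes for appetitive and 14 for aversive. Among the ER genes, 9 of the 10 belonged to the 3295, and Sdf2l1 was the 1 under 1 CPM in both appetitive libraries. The part of this wider pattern in the Sdf2l1 result was not tested.

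Hspa5 (BiP), the Hsp70 chaperone of the ER, was the most abundant of the 10 per kb of exon in all 4 groups, from 114 CPM per kb in appetitive to 276 in neutral libraries. Its level was 585, 1345 and 677 CPM in mock, 781 and 466 in aversive, 675 and 288 in appetitive, and 1363, 842 and 1303 in neutral libraries. Mock overlapped with every group. Neutral libraries lay above all aversive and appetitive libraries, and appetitive was lower than neutral by a log2 difference of -1.28 ± 0.64. Hsp90b1 (GRP94) is the Hsp90 chaperone of the ER. It measured 315, 289 and 406 CPM in mock, 119 and 217 in aversive, 36.2 and 419 in appetitive, and 604, 288 and 643 in neutral libraries. Appetitive 1 was thus below and appetitive 2 above every aversive and mock library. Part of the Hsp90b1 exons is shared with 1810014B01Rik on the opposite strand, over 415 bases, and the counting ignored strand.

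Pdia4 (ERp72), which forms and rearranges disulfide bonds, showed the widest split within the appetitive group. Its level was 2.58 CPM in appetitive 1 and 84.6 in appetitive 2, a ratio of 32.8, while mock had 117, 94.7 and 183 CPM, aversive 14.1 and 64.3, and neutral 240.2, 142.5 and 210.3. Aversive and appetitive libraries all lay under the mock and neutral ones. Calr, a calcium-binding lectin chaperone of glycoproteins, had the closest appetitive values of the 10, at 201 and 167 CPM. In mock it measured 294, 241 and 393 CPM, in aversive 254 and 222, and in neutral libraries 462, 198 and 401. Appetitive was under both mock and aversive with no overlap, by log2 differences of -0.75 ± 0.60 and -0.37 ± 0.64, each with a standard error near or above its size.

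Dnajb9 (ERdj4), a J-protein partner of Hspa5, was the only one of the 10 with its lowest group mean in neutral libraries. It measured 21.5, 20.5 and 19.7 CPM there, 37.6, 66.1 and 32.4 in mock, 15.2 and 26.3 in aversive, and 69.6 and 10.7 in appetitive libraries. Neutral and aversive libraries were each lower than all mock libraries, and did not separate from each other. Manf, which is kept in the ER and also secreted as a neurotrophic factor, measured 45.5, 64.1 and 41.1 CPM in mock, 84.9 and 72.3 in aversive, 8.37 and 87.2 in appetitive, and 260.5, 112 and 268 in neutral libraries. Neutral was above all 7 other libraries, and aversive was above mock. Manf shares exon sequence with Dcaf1 and 4930524O07Rik on the opposite strand, so part of its counts may be theirs.

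Creld2, an ER protein with EGF-like repeats, had its highest group mean in appetitive libraries. It measured 168 and 88.3 CPM there, 31.7, 54.8 and 29.3 in mock, and 127, 89.2 and 75.9 in neutral libraries. The aversive pair gave 0.35 CPM (7 counts) and 63.6 CPM, a ratio of 182, the largest split of any of the 10 genes in any group. Appetitive minus aversive was 2.00 ± 1.48 on the log2 scale with both aversive libraries, 8.50 with aversive 1 alone and 0.91 with aversive 3 alone. Appetitive minus mock was 1.73 ± 1.29, and these groups did not overlap.

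Xbp1 and Ddit3 encode transcription factors. Xbp1, the target of IRE1, measured 98.9, 330.5 and 138 CPM in mock, 119 and 105 in aversive, 230.5 and 9.11 in appetitive, and 498.5, 454 and 444 in neutral libraries. All neutral libraries were above every other library and close to each other, while the appetitive pair differed by a ratio of 25.3. Gene counts do not separate the spliced Xbp1 message from the unspliced one. Ddit3 (CHOP), which promotes cell death when the stress lasts, measured 37.8, 81.9 and 24.1 CPM in mock, 66.5 and 48.4 in aversive, 82.6 and 59.5 in appetitive, and 90.5, 31.1 and 51.8 in neutral libraries. Its groups overlapped in all 6 comparisons, and its log2 differences lay between -0.01 and 0.57. Ddit3 shares 68 bases of exon with Mars on the opposite strand.

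**Figure D2:**
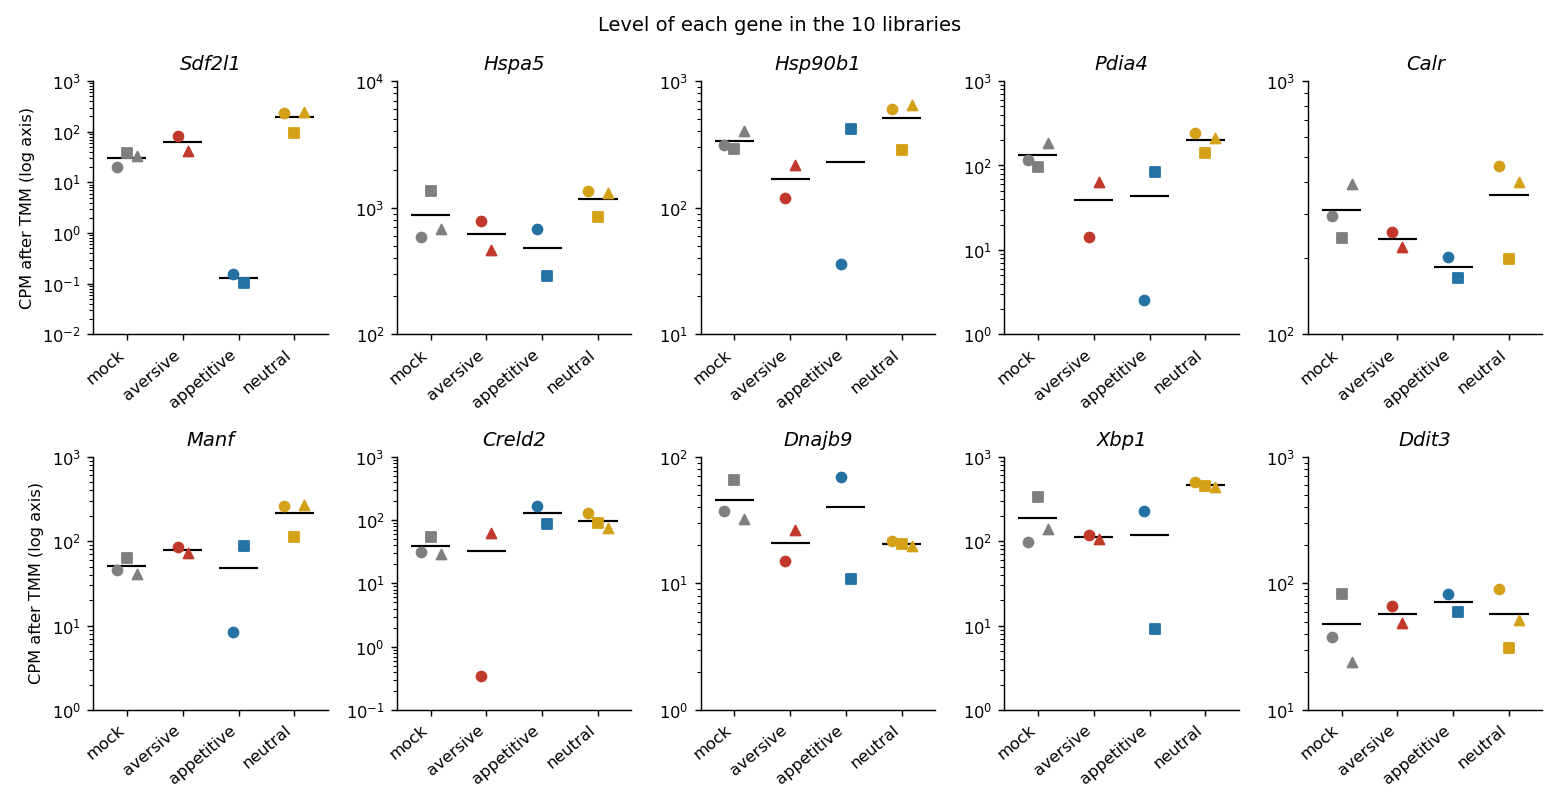
Each panel is a gene, with CPM after TMM scaling on a log y axis and the 4 groups on the x axis. Points are libraries (circle, square and triangle for replicates 1, 2 and 3) and lines are group means. Sdf2l1 sits at 0.156 and 0.105 CPM in the appetitive libraries, and the appetitive pairs of Hsp90b1, Pdia4, Manf, Dnajb9 and Xbp1 lie far apart.

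Splits within the appetitive pair ran in both directions. Hsp90b1, Pdia4 and Manf were lower in appetitive 1, by ratios of 11.6, 32.8 and 10.4, and Xbp1 and Dnajb9 were lower in appetitive 2, by ratios of 25.3 and 6.48. Over the 10 genes the median log2 range between the 2 appetitive libraries was 1.96, against 1.46 over all tested genes. In the other groups the ER genes ranged less than the genes at large, with medians of 0.93 against 1.39 in mock, 0.77 against 1.69 in aversive and 0.96 against 1.67 in neutral libraries. The 2 sets were not matched for level, and the genes at large include some with no count in either appetitive library. Oligodendrocyte markers also differed between the appetitive libraries, at 804800 summed CPM in appetitive 1 and 86620 in appetitive 2 after scaling. As a share of raw counts they made up 38.6% and 9.75%. Their part in these splits was not tested.

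In each comparison the 10 genes were read beside all 19754 tested genes, all 10 having passed the filter on low counts. The test was edgeR's quasi-likelihood test on the 10 libraries, and genes with an adjusted p under 0.05 were called. Sdf2l1 was called in appetitive vs aversive, where 1.80% of all genes were called, in appetitive vs mock (1.98%) and in appetitive vs neutral (6.17%), each time as 1 of 10. By edgeR, 0 of the 10 were called in aversive vs mock (0% of all genes), in aversive vs neutral (0.0405%) and in neutral vs mock (0.0861%). In aversive vs mock and in aversive vs neutral, 0 of the 10 had an unadjusted p under 0.05 (9.96% and 19.1% of all genes) and DESeq2 called 0 (8.30% and 16.5%). In neutral vs mock, 2 had an unadjusted p under 0.05, Sdf2l1 and Manf (13.5% of all genes), and DESeq2 called 1, Sdf2l1 (7.64%). Since the genes were picked with these contrasts in view, nothing is read from these counts.

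Groups that did not overlap were counted in the same way. In appetitive vs aversive, 1 gene was higher with no overlap (Creld2; 8.34% of all genes) and 2 were lower (Sdf2l1 and Calr; 20.1%). In appetitive vs mock, 1 was higher (Creld2; 9.78%) and 3 were lower (Sdf2l1, Pdia4 and Calr; 38.9%). In aversive vs mock, 2 were higher (Sdf2l1 and Manf; 11.4%) and 3 lower (Hsp90b1, Pdia4 and Dnajb9; 24.7%). Against neutral, 0 of the 10 were higher in aversive or appetitive libraries (14.4% of all genes for aversive and 11.4% for appetitive). There, 7 were lower in aversive, all but Calr, Dnajb9 and Ddit3 (19.3%), and 5 were lower in appetitive libraries, Sdf2l1, Hspa5, Pdia4, Manf and Xbp1 (27.2%). Neutral was above mock for Sdf2l1, Manf, Creld2 and Xbp1 (4 genes; 16.0% of all genes) and below it for Dnajb9 (1 gene; 15.9%). These comparisons share libraries and are not independent of each other.

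Median log2 fold changes over the 10 genes, beside those over all tested genes, were 0.13 and -0.48 in appetitive vs aversive, -0.61 and -1.45 in appetitive vs mock, and -1.22 and -0.91 in appetitive vs neutral. They were -0.43 and -0.13 in aversive vs mock, -1.52 and -0.15 in aversive vs neutral, and 0.60 and 0.08 in neutral vs mock. The median gene was thus lower in appetitive than in mock libraries, and relative to it 8 of the 10 genes stood higher, from 0.60 for Hspa5 to 3.19 for Creld2, the exceptions being Sdf2l1 (-6.40) and Pdia4 (-0.14). With DESeq2 the median of the same genes was -1.05 and again all but Sdf2l1 and Pdia4 stood above it. Against mock itself, edgeR put 2 of the 10 genes higher and 8 lower in appetitive libraries. Any median has as many tested genes above it as below, and this one includes genes with no count in appetitive libraries. Nothing is read from the number of the 10 above it.

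**Figure D3:**
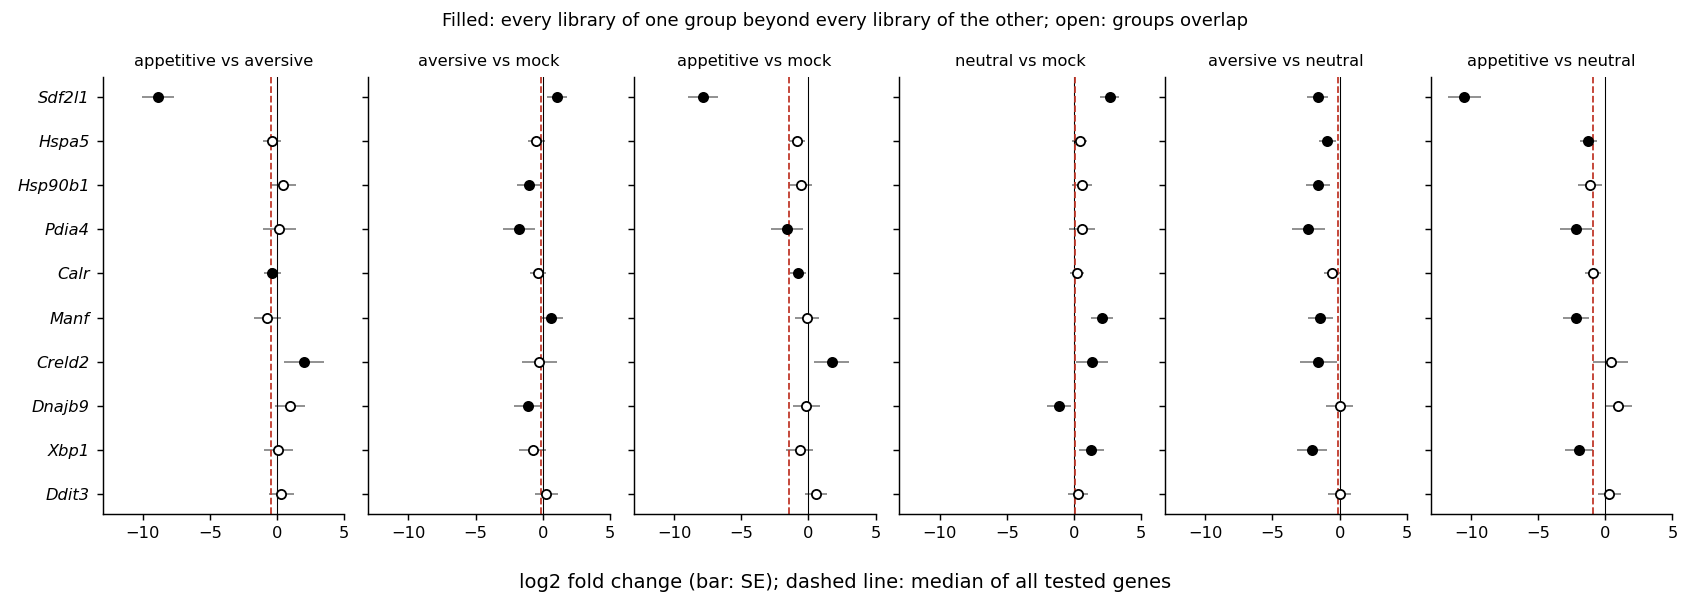
Each panel is a comparison, with the log2 fold change (first group minus second) on the x axis, bars for 1 SE and the genes as rows. Filled points mark groups that did not overlap, and the dashed line is the median of all tested genes. Sdf2l1 stands at -8.88, -7.85 and -10.51 in the 3 appetitive comparisons, values that depend on the fit because both appetitive libraries were at the floor.

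As a sum, the 10 genes measured 2272 to 3904 CPM in neutral, 1583 to 2605 in mock, 1326 and 1535 in aversive, and 1213 and 1475 in appetitive libraries. Hspa5 made up 23.7% to 51.6% of this sum. The sum of choroid plexus and ependyma markers (8 genes) was highest in the neutral group and was mostly Ttr (128900 of 133300 CPM in neutral 1), with 21920 to 133300 CPM there, 1152 to 3609 in mock, 7259 and 13950 in aversive, and 849 and 3009 in appetitive libraries. Of the 8 markers, 3 (Ttr, Folr1 and Kcnj13, all of choroid plexus) were higher in every neutral library than in any other, while the ependymal Tmem212 and Ccdc153 were highest in aversive 3. None of the 8 was at 0 throughout a group. Between neutral libraries, Sdf2l1, Hspa5, Hsp90b1, Pdia4, Calr, Manf and Ddit3 were lowest in neutral 2, where 6 of the 8 markers were lowest too, whereas Tmem212 was highest there (71.1 CPM). Neutral 2 was also lowest for 5 of 8 neuron markers and 3 of 8 cytosolic heat shock genes. It was lowest for 0 of 8 astrocyte, oligodendrocyte, microglia or endothelial markers. Astrocyte and microglia markers (8 genes each) were lower in neutral libraries. Astrocyte sums were 195 to 374 CPM in neutral and 3360 to 15410 in the other libraries, and microglia sums 39.9 to 388 and 1215 to 10560. The part of these cell types in the neutral values was not tested. Cytosolic heat shock genes, which answer to another stress, summed to 643 to 710 CPM in neutral and 348 to 2042 in mock libraries. Their sums were 1165 and 804.5 CPM in aversive and 1280 and 932 in appetitive libraries, all above the neutral ones.

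**Figure D4:**
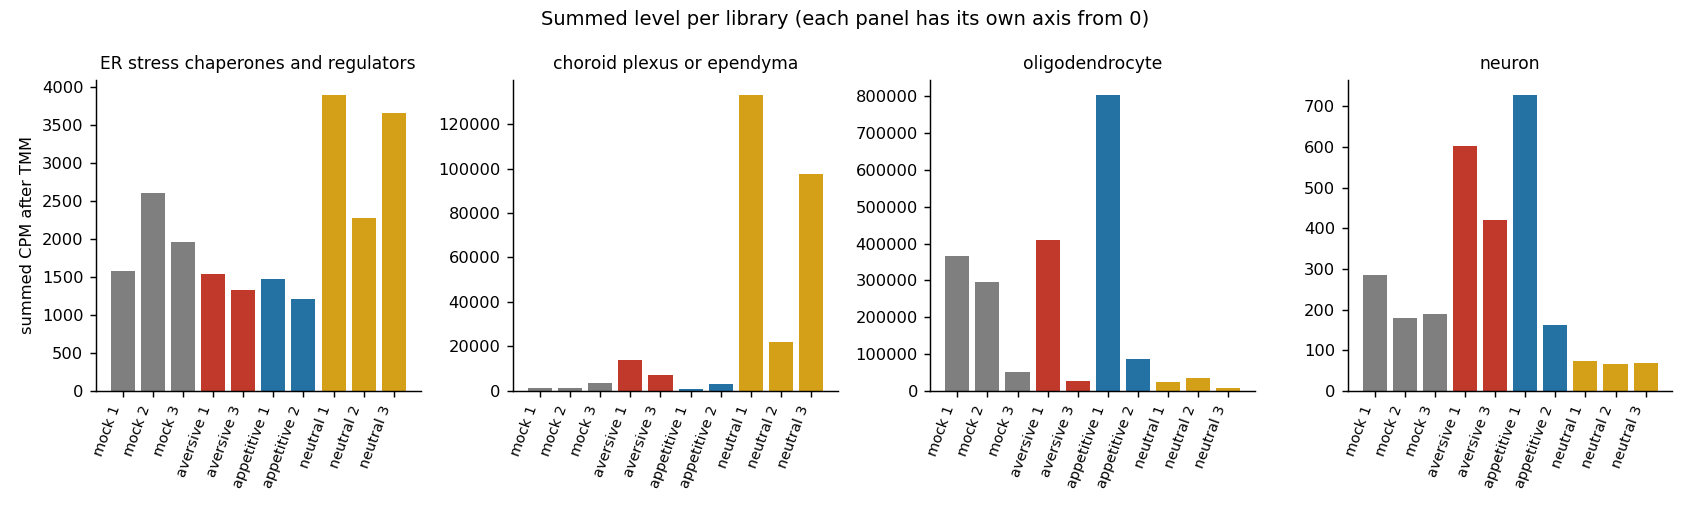
Bars are summed CPM after TMM scaling in each of the 10 libraries, with a separate axis from 0 in each panel, for the 10 ER genes and for 8 markers each of choroid plexus or ependyma, oligodendrocytes and neurons. Neutral 1 and 3 are highest for both the ER genes (3904 and 3661) and the choroid plexus or ependyma markers, and appetitive 1 is highest for oligodendrocyte markers.

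Beyond the 10 genes, 86 other genes of the unfolded protein response were tested in 5 lists. The lists were taken from general knowledge, but with earlier results of these data known. In appetitive vs aversive, 3 of the 86 were called (3.49%, against 1.80% of all genes), all lower in appetitive libraries. In appetitive vs mock 4 were called, all lower (4.65% against 1.98%), and in appetitive vs neutral 10, of which 7 were lower and 3 higher (11.6% against 6.17%). Of those among the 86 with a DESeq2 adjusted p, 19.5% were called in appetitive vs aversive, against 24.0% of all genes. These shares were 29.3% and 29.0% in appetitive vs mock, and 36.9% and 29.2% in appetitive vs neutral. Neither aversive comparison nor neutral vs mock gave a call by edgeR. In aversive vs mock, 9 of the 86 had an unadjusted p under 0.05 (9.96% of all genes) and DESeq2 called 5 (8.30%). These counts were 12 (19.1%) and 7 (16.5%) in aversive vs neutral, and 6 (13.5%) and 2 (7.64%) in neutral vs mock.

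Chaperones and folding enzymes (26 genes) held the calls in appetitive vs aversive. Txndc5, Txndc11 and Dnajc10, all thioredoxin-domain proteins of the ER that handle disulfide bonds, fell in appetitive libraries relative to aversive, mock and neutral. Txndc5 measured 0.704 and 0.0524 CPM in appetitive libraries, 70.6 and 83.9 in aversive, 48.9 to 93.5 in mock and 56.3 to 143 in neutral libraries. Its log2 difference from aversive was -7.71 ± 1.38 (edgeR adjusted p = 0.0275). Dnajc10 (ERdj5) measured 0.547 and 0.314 CPM in appetitive and 28.8 and 13.0 in aversive libraries, a log2 difference of -5.60 ± 1.17 (edgeR adjusted p = 0.0405). Txndc11 was at or under 3 counts in both appetitive libraries and at least 83.3-fold higher in aversive ones. Against neutral, Fkbp14, Creld1 and Qsox1 were also lower in appetitive libraries, and of these Creld1 and Fkbp14 were at the appetitive floor, with neutral at least 225-fold and at least 43.7-fold higher. The median log2 fold change of the 26 genes was -1.59 in appetitive vs aversive, -1.94 in appetitive vs mock and -2.77 in appetitive vs neutral (-1.61, -1.87 and -2.78 with genes at the floor set to their bound), under the medians of all genes.

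Several classical chaperones of this list were not called in any comparison. Pdia3 measured 2.74 CPM in appetitive 1 and 191 in appetitive 2, against 164 to 847 elsewhere, and like Pdia4 was low in appetitive 1. Dnajc3 (P58IPK), an inhibitor of PERK, was low in appetitive 2 instead, at 1.73 CPM against 71.7 in appetitive 1 and 112 to 326 elsewhere. Hyou1, an Hsp110-like partner of Hspa5, measured 0.547 and 0.105 CPM in appetitive and 0.45 and 3.75 in aversive libraries, against 5.78 to 35.2 in mock and 7.18 to 16.7 in neutral libraries. Dnajb11, the partner of Sdf2l1, measured 115 and 139 CPM in appetitive libraries, above all mock libraries (71.5 to 105). The membrane lectin Canx measured 229 and 353 CPM and the disulfide isomerase P4hb 303 and 618 CPM in the appetitive pair. Pdia6 measured 89.8 and 182 CPM in appetitive, 112 and 163 in aversive, 167 to 249 in mock, and 381 to 593 in neutral libraries. Among the 86, Fkbp2 (log2 difference 2.36 ± 0.71) and Pdia6 (1.31 ± 0.53) had the smallest p-values of genes higher in neutral than in mock, with edgeR adjusted p of 0.179 and 0.303.

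Sensors and transducers (8 genes) gave no edgeR call in any comparison, with 4 at an unadjusted p under 0.05 in appetitive vs aversive (3941 of all 19754 genes) and 4 called by DESeq2 there (24.0% of all genes). Atf6 measured 140.4 and 59.6 CPM in appetitive libraries, above all others (6.11 to 53.5), and the log2 difference from aversive was 3.50 ± 1.17 (edgeR adjusted p = 0.15). Eif2s1, the translation factor that PERK phosphorylates, was likewise highest in appetitive libraries, at 91.3 and 52.1 CPM. Eif2ak3, which encodes PERK, had no count in either appetitive library and only 7 counts each in aversive 1 and neutral 1, while mock had 1.56 to 16.2 CPM, aversive 3 had 39.1, and neutral 2 and 3 had 14.8 and 7.30. Ern1, which encodes IRE1, was at or under 0.235 CPM in aversive and appetitive libraries and at 1.13 to 10.8 CPM in mock and neutral libraries. Atf4 measured 143 and 174 CPM in appetitive, 66.2 and 229.7 in aversive, 48.9 to 152 in mock and 26.2 to 53.5 in neutral libraries.

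ER-associated degradation, which pulls misfolded proteins out for the proteasome, gave 0 edgeR calls among its 17 genes in every comparison, with between 0 and 5 at an unadjusted p under 0.05. DESeq2 called 5 in appetitive vs neutral (29.2% of all genes), 3 in appetitive vs mock (29.0%), and at most 1 in each of the others. Sel1l, the scaffold of the Syvn1 ubiquitin ligase, split between appetitive libraries, at 1.56 and 332 CPM. Syvn1 itself split the opposite way, at 69.4 and 7.18 CPM, and Edem1, which helps select misfolded glycoproteins, measured 20.3 and 2.51 CPM. Herpud1, which anchors this machinery, lay between 77.6 and 237 CPM over all libraries. Os9, a lectin that delivers substrates, had the smallest p-value among genes lower in aversive than in neutral libraries, with a log2 difference of -3.07 ± 0.72 (edgeR adjusted p = 0.117), and measured 32.0 and 19.3 CPM against 167 to 242.

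In the 3 appetitive comparisons, genes of the translocon and of ER traffic (19 genes) had medians above 0 where the chaperones and folding enzymes were below it. Their median log2 fold change was 0.60 in appetitive vs aversive, 0.93 in appetitive vs mock and 0.78 in appetitive vs neutral, and the difference between the lists was not tested. Sec11c, a subunit of the signal peptidase, rose in appetitive relative to neutral libraries by 2.70 ± 0.67 on the log2 scale, at 724 and 1366 CPM against 87.0 to 282. Spcs3, another subunit of the same enzyme, fell, at 1.10 and 0.262 CPM in appetitive against 36.9 to 113 in neutral libraries. Ssr1, of the translocon-associated complex, had 556 and 330 CPM in appetitive libraries, above all others (93.3 to 163). Kdelr3, a receptor that returns ER proteins, had no count in any aversive or appetitive library and 1.04 to 11.8 CPM in mock and neutral libraries.

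Targets of PERK and ATF4 (16 genes) were called only in appetitive vs neutral, where Atf3 and Psat1 were higher in appetitive libraries. Atf3, a stress-induced transcription factor, measured 812 and 292 CPM in appetitive, 1092 and 96.1 in aversive, at most 956 in mock and 7.02 to 33.1 in neutral libraries, and so set the neutral libraries apart from the rest. Slc7a11, the cystine transporter, was likewise lowest in neutral libraries, with 0 to 3.15 CPM in neutral and 9.93 to 143 CPM in the other libraries. Chac1 was at 0 in all but 2 mock libraries. Trib3, a pseudokinase, was at most 0.0200 CPM in aversive and appetitive libraries, 1.43 to 6.04 in mock, 27.3 in neutral 2 and at most 0.193 in the other neutral libraries. Ppp1r15a, which lets translation resume, varied most in aversive libraries, at 340.4 and 1.92 CPM. Early response genes, which enzymatic dissociation at 37 °C is known to induce, summed to 1237 to 9819 CPM over 13 genes, with overlapping ranges in all 4 groups. Single genes of the 13 did differ. Socs3 measured 0.391 and 0.838 CPM in appetitive and 18.4 to 218 in the other libraries. In each appetitive comparison 1 of the 13 was called lower, and 3 of the 13 were lower in every neutral library than in any other.

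**Figure D5:**
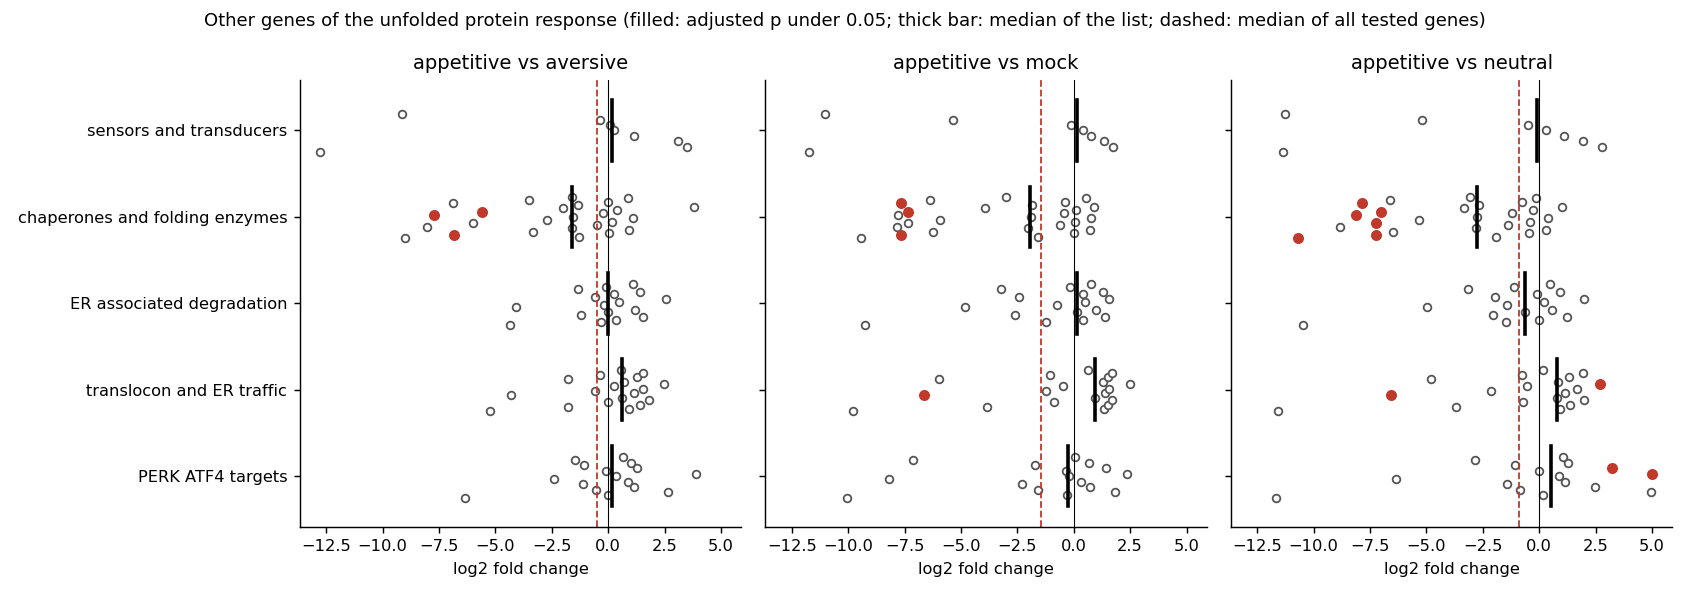
Each point is a gene of the 5 lists, with its log2 fold change on the x axis, in the 3 appetitive comparisons. Filled points passed an adjusted p under 0.05, thick bars are list medians and the dashed line is the median of all tested genes. Calls among chaperones and folding enzymes (3, 3 and 6 genes) all lie left of 0.

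How alike the 10 genes were among themselves was described by Pearson's r over the 10 libraries between each gene's log2 CPM and the mean of the other 9. It was between 0.58 and 0.71 for Sdf2l1, Hspa5, Hsp90b1, Pdia4, Calr, Manf and Xbp1, and 0.02, -0.09 and -0.14 for Creld2, Dnajb9 and Ddit3. Genes outside the list with the highest r with the mean of the 10 were Ccdc103 (0.98), Shisa2 (0.98), Slc7a4 (0.97), Cfap45 (0.97) and Msx2 (0.97). Ccdc103 and Cfap45 encode proteins of motile cilia. Ccdc103, Shisa2, Slc7a4 and Cfap45 had no count in either appetitive library and were highest in neutral ones, with 69.1 to 183 CPM for Slc7a4. All 10 points share library, kit and depth within their group, so these values describe the libraries and not a link between the genes.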

How the data were processed

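Sorted EYFP-tagged cells (called nuclei in the study's Results) and mock cells from the hippocampus were profiled by RNA-seq of polyA RNA. The authors mapped the first bases of each read to mm10 (GRCm38) with STAR, counted reads per Ensembl gene with featureCounts (Subread) without regard to strand, and deposited raw counts per library. Tool versions are not given in the sources used here. The labels gave the groups and replicate numbers. Total counts were 16968588 to 67650693 per library, and 3 counts were taken as the floor.

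Counts were scaled by TMM and fitted with edgeR 4.0.16 in R 4.3.3, as 1 quasi-likelihood model of 10 libraries in 4 groups after filterByExpr (19754 genes, common dispersion 1.49). P-values are two-sided and Benjamini-Hochberg adjusted over all tested genes, and 0.05 was the threshold. Standard errors came from edgeR's F statistics. The log2 CPM values use a prior count of 2. The step was tested on simulated data. Alternatives were DESeq2 1.42.0 (the study's tool), edgeR scaled by DESeq2's size factors or by totals only, no filter, only the 2 groups compared, the replicate number as a block, and leaving out each library. Symbols and positions came from GENCODE M21, to which 53274 identifiers were matched, and promoters from RefSeq. Python 3.11.15, pandas 2.3.3 and matplotlib 3.10.9 made tables and figures.

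The 10 genes, the 5 lists and the marker lists were chosen with earlier results of these data known. Genes named besides the 10 were 19 set by name, in each comparison the 2 of the 86 with the smallest p in each direction, and the 5 most alike. Others called among the 86 were named after their values were seen. Protein sequences and the reads were not analysed here.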

Additional observations from a re-analysis of the deposited data

Results flagged for a closer look

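Among the 86 other genes of the unfolded protein response, 3 had effects against mock that differed between the appetitive and the aversive experience by edgeR's test of that difference. Mock cancels in this difference, so these are the same 3 calls of appetitive vs aversive given above and not a further result. Appetitive minus aversive was -7.71 on the log2 scale for Txndc5, -6.85 for Txndc11 and -5.60 for Dnajc10. The Txndc11 value depends on the fit, since both appetitive libraries were at or under 3 counts, and the bound is at least 83.3-fold. Both appetitive libraries were lower than both aversive libraries for each of the 3.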

How the results depend on the processing

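Counts of called genes among the 86 depended on the processing. In appetitive vs aversive (3 in the reported fit), DESeq2 called 16 (24.0% of all genes it tested), edgeR with no filter 6 (3.6%), and a fit of only the 2 groups compared 0 (0%). In appetitive vs mock (4), these counts were 24 (29.0%), 9 (3.19%) and 20 (21.8%), and in appetitive vs neutral (10) they were 31 (29.2%), 13 (7.19%) and 0 (0%). Where the reported count was 0, DESeq2 called 5 in aversive vs mock, 7 in aversive vs neutral and 2 in neutral vs mock, and edgeR with no filter called 2 in aversive vs neutral and 2 in neutral vs mock. The cause was not tested.

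Deviations from the group mean correlated at r from -0.04 to 0.16 between same-numbered libraries, and from -0.16 to 0.12 between other pairs. With 2 or 3 libraries per group, this cannot settle whether the numbers pair the libraries. With the replicate number as a block, 0 of the 86 were called in each of the 6 comparisons, against 3, 4 and 10 in the 3 appetitive ones without it. Over all genes the block left 0, 0 and 73 calls there (356, 391 and 1218 without it).

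Leaving out 1 library moved the counts to between 5 and 10 in appetitive vs aversive, 0 and 11 in appetitive vs mock, and 0 and 14 in appetitive vs neutral, and left them at 0 in the other 3 comparisons. Without appetitive 2 the counts were 10, 11 and 14, and without appetitive 1 they were 5, 5 and 7. In appetitive vs aversive the count was 5 without aversive 1 and 6 without aversive 3. Without any 1 of the mock libraries, 0 were called in appetitive vs mock. Without neutral 1, 2 or 3, the counts in appetitive vs neutral were 4, 8 and 0. A group left with 1 library is assumed to vary like the others.

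Sdf2l1 kept its direction in the appetitive comparisons under every alternative, with log2 fold changes from -7.57 to -11.17. Its call was lost in appetitive vs aversive with the block (edgeR adjusted p = 0.126) and with only the 2 groups (0.711), in appetitive vs mock with the block (0.107) and without any 1 mock library (0.0785 to 0.0937), and in appetitive vs neutral with only the 2 groups (0.0951). For the 10 genes, 609 of 660 fold changes under alternatives moved by less than 1 SD between replicates, and 51 moved by more. Without appetitive 1 or 2, 15 and 9 values moved, among them Xbp1 vs neutral (-1.96 to -5.77 without appetitive 1) and Pdia4 vs neutral (-2.18 to -6.33 without appetitive 2). Some fits that left a group with 1 library also called genes of the 10 besides Sdf2l1. The share of all genes called in those fits is not given here, so nothing is read from those calls. DESeq2's size factors moved the median of all genes in appetitive vs mock from -1.45 to -1.17, library size alone to -1.93, DESeq2 to -1.05 and a fit of only the 2 groups to -0.84. Over all genes with a DESeq2 value, which include those filtered out as low, it was -0.27. In these fits 8 of the 10 genes, or 9 with library size alone, stood above the median of the tested genes.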
